A study of Mus musculus with 15 samples.

Results

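Endothelial and blood-brain barrier genes were followed as a set of 10 genes among the 46679 genes of the count table: Pecam1, Cdh5, Cldn5, Ocln, Mfsd2a, Slc2a1, Abcb1a, Abcg2, Plvap and Slco1a4. They were taken from a list of names of vessel-lining and barrier genes, with no measured value in the rule. The choice was made with earlier results of these data known. Whole transcriptome RNA sequencing was done on bulk tissue of C57BL/6 mice, with 3 mice in each of 5 groups and 15 samples in all. The groups were naïve brain and end-stage tumors of 4 syngeneic glioblastoma lines, CT2A, GL261, 005 and Mut3. The tumor lines were grown in the right hemisphere of mice that were 6 to 8 weeks old at implantation, from 100000 cells for CT2A, GL261 and 005 and from 500000 cells for Mut3. The same age of 6 to 8 weeks is listed for the naïve mice.

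CT2A and GL261 are lines first induced with the carcinogen methylcholanthrene. The 005 line was made by activating H-ras and AKT in p53+/- mice, and Mut3 carries inactivated NF1 and p53. By the study's methods, all 4 implanted lines had been given GFP and firefly luciferase. All 3 mice of a tumor group received the same line, so a group is a repeat of 1 line and not of a genotype. Tumor-bearing mice were perfused with PBS before the tissue was taken, and the brain region of the naïve samples is not given in the sources used here.

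The blood-brain barrier is formed by endothelial cells that are sealed to each other by tight junctions, carry few vesicles, take up nutrients through dedicated carriers and pump foreign compounds back into the blood. Pericytes, astrocyte end-feet and Wnt signals keep these properties in place, and vessels of brain tumors are known for losing part of them. Pecam1 (CD31) and Cdh5 (VE-cadherin) are adhesion proteins at endothelial contacts, Cldn5 (claudin-5) and Ocln (occludin) are tight junction proteins, and Plvap forms the diaphragms of fenestrae and caveolae in permeable vessels. Mfsd2a carries lipids and holds back vesicle transport, Slc2a1 (GLUT1) carries glucose, Slco1a4 carries organic anions, and Abcb1a (P-glycoprotein) and Abcg2 are efflux pumps.

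The start regions of 4 of the genes are printed because the results turn on them or on a signal read beside them. Slco1a4 is the transporter whose fall is described first, Slc2a1 and Mfsd2a are set beside the hypoxia and Wnt lists, and Cldn5 is a barrier junction gene. Each window runs 5′ to 3′ along the gene, from 250 bases before the start to 50 after it, from RefSeq on GRCm38.p6. Capitals mark 3 short motifs searched on both strands: ACGTG (the core of a hypoxia response element), GGAAG (an ETS core) and CTTTGA (a TCF/LEF core).
Slco1a4, chr6:141856171-141856470, minus strand: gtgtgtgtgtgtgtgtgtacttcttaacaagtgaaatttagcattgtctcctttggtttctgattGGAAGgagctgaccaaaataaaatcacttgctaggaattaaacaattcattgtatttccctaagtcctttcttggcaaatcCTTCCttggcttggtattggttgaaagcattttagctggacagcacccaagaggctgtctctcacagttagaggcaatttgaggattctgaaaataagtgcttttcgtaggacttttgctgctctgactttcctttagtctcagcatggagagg
Mfsd2a, chr4:122961139-122961438, minus strand: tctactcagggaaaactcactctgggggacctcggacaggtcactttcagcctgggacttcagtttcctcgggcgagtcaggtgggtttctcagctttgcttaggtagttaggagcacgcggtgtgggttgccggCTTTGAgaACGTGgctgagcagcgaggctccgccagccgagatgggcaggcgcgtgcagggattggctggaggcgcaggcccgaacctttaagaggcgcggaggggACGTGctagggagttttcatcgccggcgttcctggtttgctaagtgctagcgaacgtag
Slc2a1, chr4:119108495-119108794, plus strand: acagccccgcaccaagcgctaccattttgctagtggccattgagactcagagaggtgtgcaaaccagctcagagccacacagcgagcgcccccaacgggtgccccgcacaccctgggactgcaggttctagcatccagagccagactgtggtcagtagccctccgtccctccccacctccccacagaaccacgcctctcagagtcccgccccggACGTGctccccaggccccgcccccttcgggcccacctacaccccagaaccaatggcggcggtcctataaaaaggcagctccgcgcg
Cldn5, chr16:18776597-18776896, plus strand: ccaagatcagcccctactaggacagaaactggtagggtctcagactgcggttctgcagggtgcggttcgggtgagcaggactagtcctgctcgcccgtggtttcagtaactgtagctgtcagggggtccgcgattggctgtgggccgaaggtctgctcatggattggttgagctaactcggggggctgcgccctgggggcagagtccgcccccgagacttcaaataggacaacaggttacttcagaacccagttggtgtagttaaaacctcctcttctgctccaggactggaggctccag
The Slco1a4 window held 2 ETS cores and 1 CpG, the Mfsd2a window 2 hypoxia cores, 1 TCF/LEF core and 22 CpGs, and the Slc2a1 window 1 hypoxia core and 18 CpGs. The Cldn5 window held 12 CpGs and none of the 3 motifs. Among all 32851 windows of this length, 19.6% held ACGTG, 71.4% held GGAAG and 16.0% held CTTTGA, and the quartiles of the CpG count were 3, 7 and 20. A match is a description of letters and was not tested as a binding site. RefSeq windows matched 7 of the 10 genes.

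Gene spans are those of GENCODE M21 on GRCm38. Total estimated counts ran from 3105119 to 5161132 in naïve brain and from 5380395 to 13130158 in the tumors. On these totals a value of 3 counts was worth between 0.2285 and 0.9661 CPM (counts scaled to a library of 1000000). CPM values below also carry a scaling factor per sample, from 0.88 in CT2A replicate 3 to 1.30 in naïve replicate 2. These worths of 3 counts therefore do not hold exactly for them. The mitochondrial share was 14.97% to 24.0% in naïve brain, 17.8% in 005 replicate 3 and at most 11.3% in the other tumor samples. The summed level of 8 neuronal markers in 005 replicate 3 was 3786 CPM, against 200.4 and 615 CPM in the other 005 samples and 4274 to 6735 CPM in naïve brain, so 005 values are given with and without it where a result rests on it. In bulk tissue a lower value for a vessel gene can come from fewer endothelial cells or from less RNA per cell, and these cannot be told apart.

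All 10 genes passed the filter on low counts, which kept 17481 genes. Levels between genes are compared on TPM, which is scaled by transcript length. The median TPM over the 15 samples was 14.3 for Pecam1 and 10.7 for Abcg2, 2.90 for Slc2a1, 1.62 for Cldn5, 1.08 for Mfsd2a, 0.674 for Plvap, 0.292 for Cdh5, 0.255 for Slco1a4, 0.166 for Ocln and 0.126 for Abcb1a. Pecam1 and Abcg2 therefore led the set by level. The least counted value was Ocln in Mut3 replicate 1, at 2.89 counts, which was the 1 value of the set under 3 counts. No gene of the set was at 0 in any sample.

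A gene is called differentially expressed (DE) where the Benjamini-Hochberg adjusted p of edgeR's quasi-likelihood test was under 0.05 over all 17481 genes and the change was at least 2-fold. The 4 comparisons with naïve brain share the same 3 naïve samples. Of the 17481 genes, 4987 had all CT2A samples below all naïve samples, 4216 all GL261 samples and 4543 all Mut3 samples. All Mut3 samples lay above all naïve samples for 4783 genes. Separations from naïve brain given below for single genes are to be read beside these counts. No gene of the set was DE and higher than naïve brain in any of the 4 tumors by edgeR, and DESeq2 also called 0 in each. At an unadjusted p under 0.05, 2 genes were higher in 005 and 2 in Mut3, with 0 in CT2A and 0 in GL261. Over all tested genes, 19.0% were DE and higher for CT2A, 14.6% for GL261, 11.6% for 005 and 17.9% for Mut3. Genes that were DE and lower were Slco1a4, Abcb1a and Plvap in CT2A, Abcb1a in GL261, and Slco1a4 and Abcb1a in Mut3. That is 3 of 10 in CT2A, where 20.2% of all genes were DE and lower, 1 of 10 in GL261 (7.77% of all genes) and 2 of 10 in Mut3 (19.8%). No gene of the set was DE in 005 by edgeR, where 1.05% of all genes were DE and lower. DESeq2 called 1 there (Abcb1a) and 3 had an unadjusted p under 0.05. The test for any difference among the 5 groups had an adjusted p under 0.05 for 3 of the 10 genes, against 52.1% of all genes: Pecam1 (adjusted p = 0.0056), Slco1a4 (adjusted p = 0.0055) and Abcb1a (adjusted p = 0.0021).

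**Figure D1:**
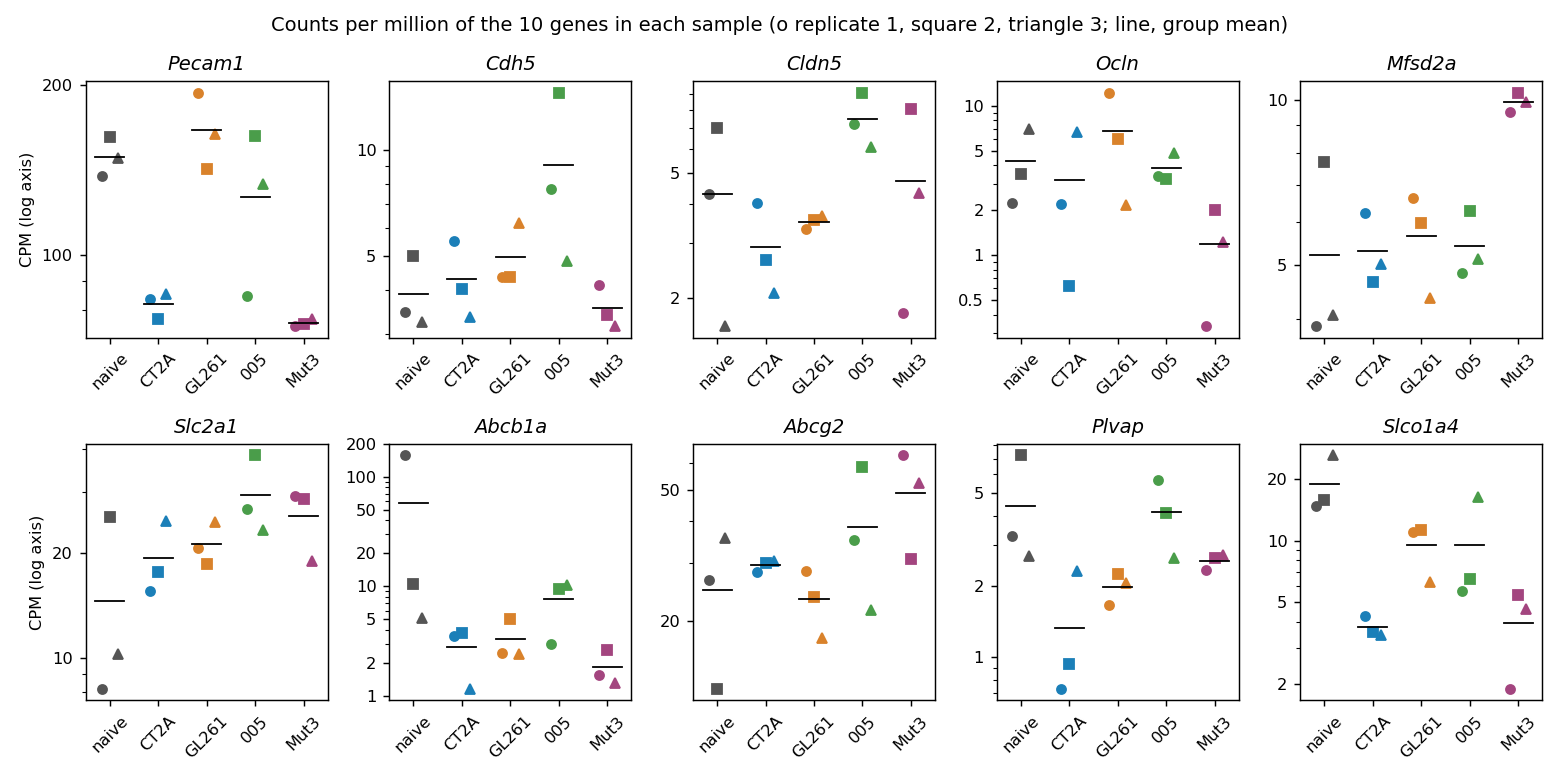
Each panel shows 1 gene, with CPM on a log axis against the group, 1 point per sample (circle, square and triangle for replicates 1, 2 and 3) and a line at the group mean. Slco1a4 sits at 14.7 CPM or above in naïve brain and at 5.41 CPM or below in CT2A and Mut3, and 1 naïve sample of Abcb1a stands at 157 CPM.

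Slco1a4 (ENSMUSG00000030237, chr6:141805440-141856199, minus strand), the organic anion carrier of brain vessels, fell in CT2A and Mut3. It stood at 14.7, 15.7 and 26.0 CPM in the naïve brains, 4.27, 3.57 and 3.49 CPM in CT2A, 10.98, 11.3 and 6.31 CPM in GL261, 5.67, 6.52 and 16.4 CPM in 005 and 1.90, 5.41 and 4.66 CPM in Mut3. All naïve samples lay above all CT2A, GL261 and Mut3 samples, and 005 replicate 3 lay among the naïve samples. The log2 fold change against naïve brain was -2.31 ± 0.50 (SE, n = 3 per group) in CT2A (edgeR adjusted p = 0.0036) and -2.23 ± 0.50 in Mut3 (edgeR adjusted p = 0.0033). With 1 sample left out in turn, the call held in 6 of 6 fits in both tumors, with changes from -2.45 to -1.99 in CT2A and from -2.49 to -1.88 in Mut3. On log2(TPM + 1) with limma the changes were -0.99 for CT2A (limma adjusted p = 0.00076) and -0.96 for Mut3 (limma adjusted p = 0.00078), under the 2-fold limit of a call. Slco1a4 lay between 0.0715 and 1.42 TPM, and adding 1 to values of this size makes changes smaller. The change was -0.98 ± 0.48 in GL261 (edgeR adjusted p = 0.140) and -0.97 ± 0.48 in 005 (edgeR adjusted p = 0.175). Without 005 replicate 3 the change in 005 was -1.69 and passed the test (edgeR adjusted p = 0.0121).

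Slco1a4 levels moved with the markers of neurons. All 8 neuronal markers were DE and lower in CT2A and in Mut3, and 0 of 8 in GL261 and in 005 by edgeR. At an unadjusted p under 0.05, 7 of them were lower in GL261 and 4 in 005, and DESeq2 called 7 and 2 lower. Their summed level was 4274 to 6735 CPM in naïve brain, 235 to 1117 CPM in CT2A, 833 to 1934 CPM in GL261, 200.4 to 3786 CPM in 005 and 51.1 to 149 CPM in Mut3, with no marker at 0 in any sample. Over the 15 samples, Pearson's r of log2 CPM between Slco1a4 and the neuronal sum was 0.89, and with the summed oligodendrocyte markers it was 0.83. With the summed astrocyte end-foot genes r was 0.79, and with the summed hypoxia targets it was -0.76. The points share libraries and group differences, and the part of these cells or of hypoxia in the Slco1a4 result was not tested. Against the summed pan-endothelial list, r was 0.40. Of 7 oligodendrocyte markers, 3 were DE and lower in CT2A and 5 in Mut3, and of 5 red blood cell genes 4 were lower in GL261 and 1 in Mut3.

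**Figure D2:**
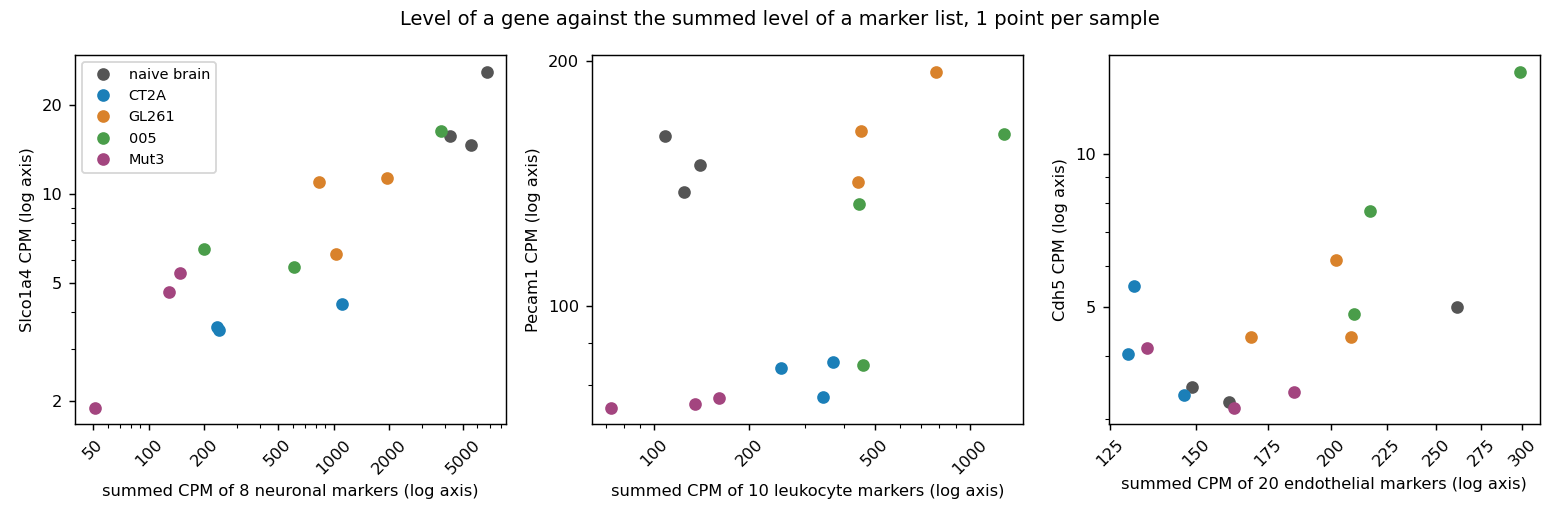
Each panel plots the CPM of 1 gene (vertical log axis) against the summed CPM of a marker list (horizontal log axis), with 1 point per sample coloured by group: Slco1a4 with neuronal markers, Pecam1 with leukocyte markers and Cdh5 with pan-endothelial genes. Pearson's r over the 15 samples was 0.89, 0.39 and 0.67 in that order, as a description.

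Abcb1a (ENSMUSG00000040584, chr5:8660077-8748575, plus strand), the P-glycoprotein pump of mouse brain vessels, was called lower in 3 tumors, and 1 naïve sample carried most of the size. It stood at 157, 10.5 and 5.14 CPM in naïve brain, 3.54, 3.73 and 1.16 CPM in CT2A, 2.49, 5.01 and 2.43 CPM in GL261, 2.99, 9.54 and 10.3 CPM in 005 and 1.57, 2.64 and 1.32 CPM in Mut3. The naïve replicate 1 value rested on 768 counts and was far above the other 14 samples. Samples of CT2A, GL261 and Mut3 all lay below the lowest naïve value. The log2 fold change was -4.35 ± 1.05 for CT2A (edgeR adjusted p = 0.0058), -4.12 ± 1.04 in GL261 (edgeR adjusted p = 0.0133), -2.91 ± 0.97 in 005 (edgeR adjusted p = 0.0612) and -4.97 ± 1.08 in Mut3 (edgeR adjusted p = 0.0028). Without naïve replicate 1 these became -1.46 in CT2A (edgeR adjusted p = 0.103), -1.23 in GL261 (edgeR adjusted p = 0.206), -0.03 in 005 (edgeR adjusted p = 0.987) and -2.08 in Mut3 (edgeR adjusted p = 0.0305). The fall in Mut3 thus passed the test in 6 of 6 such fits, and the GL261 call was also lost without GL261 replicate 1 (-3.82, edgeR adjusted p = 0.0652) and without GL261 replicate 3 (-4.00, edgeR adjusted p = 0.0532). In 005 the gene passed the test without naïve replicate 2 (-3.32, edgeR adjusted p = 0.0385), naïve replicate 3 (-3.45, edgeR adjusted p = 0.0278) or 005 replicate 3 (-3.27, edgeR adjusted p = 0.0356). The predicted genes Gm42684 and Gm42686 overlap Abcb1a.

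Close relatives of these carriers were measured beside them and were named after their values were seen. Abcb1b, the second mouse gene for P-glycoprotein, stood at 6.12, 2.49 and 1.35 CPM in naïve brain, 21.6, 19.6 and 30.0 CPM in CT2A, 15.1, 3.07 and 6.55 CPM in GL261, 23.3, 33.2 and 5.34 CPM in 005 and 15.1, 16.6 and 11.6 CPM in Mut3. It rose in CT2A (log2 fold change 2.80, edgeR adjusted p = 0.0071), 005 (2.60, edgeR adjusted p = 0.0254) and Mut3 (2.09, edgeR adjusted p = 0.0267), while its change in GL261 was 1.27 (edgeR adjusted p = 0.179). Slco1a6, a neighbour of Slco1a4 in the same carrier family, stood at 5.30 to 9.22 CPM in naïve brain, 35.5 to 73.0 CPM in CT2A, 19.7 to 25.1 CPM in GL261, 2.27 to 6.91 CPM in 005 and 24.6 to 59.6 CPM in Mut3. It rose in CT2A (2.85, edgeR adjusted p = 0.00077), GL261 (1.75, edgeR adjusted p = 0.0148) and Mut3 (2.56, edgeR adjusted p = 0.0010), with -0.63 in 005 (edgeR adjusted p = 0.341). Slco1a5 also rose in CT2A (edgeR adjusted p = 0.0366), GL261 (edgeR adjusted p = 0.0060) and Mut3 (edgeR adjusted p = 0.00083), from 0.270 to 0.612 CPM in naïve brain to 1.81 to 2.93, 2.26 to 11.8 and 5.71 to 19.4 CPM, and was at 0.309 to 1.07 CPM in 005 (edgeR adjusted p = 0.794). Its naïve values rest on at most 2.94 counts, so no fold is given. So in CT2A and Mut3 the brain-vessel carrier was lower and its relatives were higher in the same libraries. These genes are similar in sequence, and how reads that match several of them were divided is uncertain here.

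**Figure D3:**
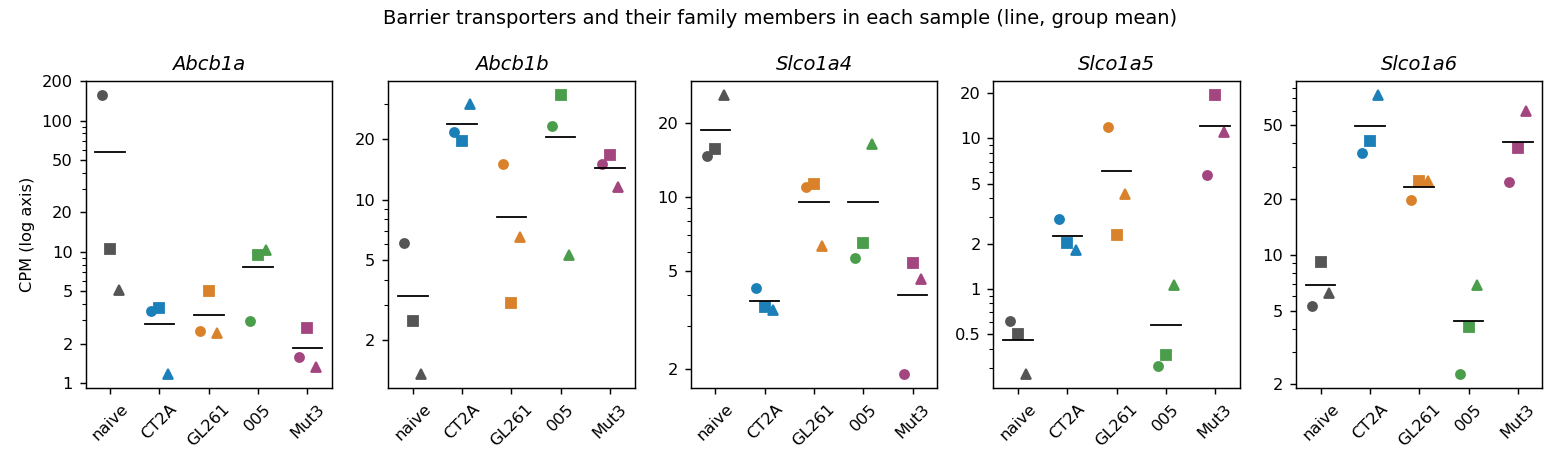
CPM on a log axis for Abcb1a and its relative Abcb1b, and for Slco1a4 and its relatives Slco1a5 and Slco1a6, with 1 point per sample by group and a line at the group mean. In CT2A and Mut3, Slco1a4 is at 5.41 CPM or below while Slco1a6 is at 24.6 CPM or above.

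Plvap (ENSMUSG00000034845, chr8:71497765-71511752, minus strand), the gene of permeable vessels, was not DE and higher in any tumor and was called lower in CT2A. Its values were 3.26, 7.22 and 2.70 CPM in naïve brain, 0.733, 0.931 and 2.33 CPM in CT2A, 1.66, 2.26 and 2.06 CPM in GL261, 5.67, 4.10 and 2.63 CPM in 005 and 2.35, 2.64 and 2.73 CPM in Mut3. CT2A and GL261 samples lay below all naïve samples, and 005 and Mut3 samples overlapped them. The log2 fold change was -1.71 ± 0.56 in CT2A (edgeR adjusted p = 0.0261), -1.13 in GL261 (95% interval -2.31 to 0.06), -0.09 in 005 (-1.23 to 1.05) and -0.77 in Mut3 (-1.92 to 0.39). The CT2A call was lost without naïve replicate 2 (-0.95, edgeR adjusted p = 0.230), without CT2A replicate 1 (-1.40, edgeR adjusted p = 0.0917) and without CT2A replicate 2 (-1.42, edgeR adjusted p = 0.119). It was also lost with no filter on low counts (-1.70, edgeR adjusted p = 0.0710) and with only the samples compared in the fit (-1.62, edgeR adjusted p = 0.0641). The counts behind these values ran from 6.14 to 55.3. Gtpbp3 lies on the opposite strand across part of Plvap, and without stated strand counting the reads of the pair cannot be told apart. Gtpbp3 was not DE in any tumor.

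Pecam1 (ENSMUSG00000020717, chr11:106654217-106750628, minus strand), an adhesion protein of endothelium, leukocytes and platelets, was lower in CT2A and Mut3 than in GL261. It measured 138, 162 and 149 CPM in naïve brain, 83.9, 77.3 and 85.4 CPM in CT2A, 194, 142 and 164 CPM in GL261, 84.7, 162 and 134 CPM in 005 and 75.1, 75.7 and 77.2 CPM in Mut3. CT2A and Mut3 samples all lay below all naïve and all GL261 samples, and GL261 and 005 overlapped naïve brain. Against naïve brain the log2 fold change was -0.86 ± 0.25 in CT2A (edgeR adjusted p = 0.0148) and -0.98 ± 0.25 in Mut3 (edgeR adjusted p = 0.0075), under the 2-fold limit of a call in both. It was 0.16 in GL261 (95% interval -0.38 to 0.69) and -0.24 in 005 (-0.77 to 0.30). The Mut3 change reached 2-fold without naïve replicate 1 (-1.03, edgeR adjusted p = 0.0171) or Mut3 replicate 3 (-1.01, edgeR adjusted p = 0.0211). With library size scaling it was called lower in CT2A (-1.07, edgeR adjusted p = 0.0086) and in Mut3 (-1.03, edgeR adjusted p = 0.0097), and on log2(TPM + 1) likewise in CT2A (-1.71, limma adjusted p = 0.0010) and in Mut3 (-1.66, limma adjusted p = 0.0011). Among genes with 10 counts in every sample it was called lower in Mut3 (-1.01, edgeR adjusted p = 0.0050).

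Between tumors, Pecam1 was higher in GL261 than in CT2A by 1.02 ± 0.25 on the log2 scale (edgeR adjusted p = 0.0236), with 1 of 10 genes of the set called and 7.77% of all genes. That call stood in 1 of 6 fits with 1 sample left out, the fit without GL261 replicate 2 (1.11, edgeR adjusted p = 0.0439). In the other 5 the change ran from 0.93 to 1.04 and the edgeR adjusted p from 0.0644 without CT2A replicate 1 to 0.0973 without CT2A replicate 2. Pecam1 was lower in Mut3 than in GL261 by -1.13 ± 0.25 (edgeR adjusted p = 0.0090), the 1 gene of the set called in a comparison where 17.2% of all genes were DE. This call held in 6 of 6 fits, with changes from -1.28 to -1.07. Of 8 leukocyte markers tested out of 10, 5 were DE and higher in CT2A, 4 in GL261 and 6 in 005, and 2 were lower in Mut3. Their summed level was 108 to 139 CPM in naïve brain, 251 to 368 CPM in CT2A, 440 to 778 CPM in GL261, 444 to 1278 CPM in 005 and 73.1 to 161 CPM in Mut3, with Cd3e at 0 in 4 samples and Cd79a in 1. Over the 15 samples r of log2 CPM between Pecam1 and this sum was 0.39, and 5 of the 8 tested markers were lower in Mut3 than in GL261. Between GL261 and CT2A edgeR and DESeq2 called 0, with 2 at an unadjusted p under 0.05 (1 in each direction). With the neuronal sum r was 0.65 and with the sum of the 7 oligodendrocyte markers 0.68. The oligodendrocyte sum was 1638 to 4208 CPM in naïve brain, 213 to 1194 CPM in CT2A, 1120 to 1736 CPM in GL261, 446 to 4668 CPM in 005 and 309 to 492 CPM in Mut3, with no marker at 0. The part of any of these cells in the Pecam1 differences was not tested.

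Cdh5 (ENSMUSG00000031871, chr8:104101625-104144511, plus strand), the adhesion protein of endothelial junctions, had another order of groups than Pecam1. Its levels were 3.47, 4.98 and 3.24 CPM in naïve brain, 5.50, 4.04 and 3.36 CPM in CT2A, 4.35, 4.36 and 6.19 CPM in GL261, 7.73, 14.5 and 4.84 CPM in 005 and 4.14, 3.40 and 3.17 CPM in Mut3. The highest values were in 005, whose lowest sample overlapped naïve brain. The log2 fold change in 005 was 1.20 ± 0.44 (edgeR adjusted p = 0.0855). Without 005 replicate 3 it was 1.43 and passed the test (edgeR adjusted p = 0.0168). In CT2A the change was 0.14 (95% interval -0.81 to 1.09), in GL261 0.35 (-0.59 to 1.30) and in Mut3 -0.13 (-1.07 to 0.82). Cdh5 was lower in Mut3 than in 005 by -1.33 ± 0.43 (edgeR adjusted p = 0.0418), the 1 gene of the set called there, against 19.8% of all genes. Leaving out 1 sample at a time kept this call in 1 of 6 fits, the fit without 005 replicate 3 (-1.58, edgeR adjusted p = 0.0192). It was lost without 005 replicate 1 (-1.43, edgeR adjusted p = 0.0538), 005 replicate 2 (-0.82, edgeR adjusted p = 0.214), Mut3 replicate 1 (-1.50, edgeR adjusted p = 0.0781), Mut3 replicate 2 (-1.29, edgeR adjusted p = 0.105) or Mut3 replicate 3 (-1.34, edgeR adjusted p = 0.104). Over the 15 samples r of log2 CPM was 0.67 between Cdh5 and the pan-endothelial sum and 0.65 between Cdh5 and the leukocyte sum. Replicate 2 of 005 held both the highest Cdh5 value and the highest leukocyte sum (1278 CPM, against 459 and 444 CPM in the other 005 samples), and 7 of 8 leukocyte markers were lower in Mut3 than in 005. The part of leukocytes in the Cdh5 values was not tested. Cdh5 counts were low, between 11.6 and 120, and a gene antisense to it (Gm29682) overlaps it.

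**Figure D4:**
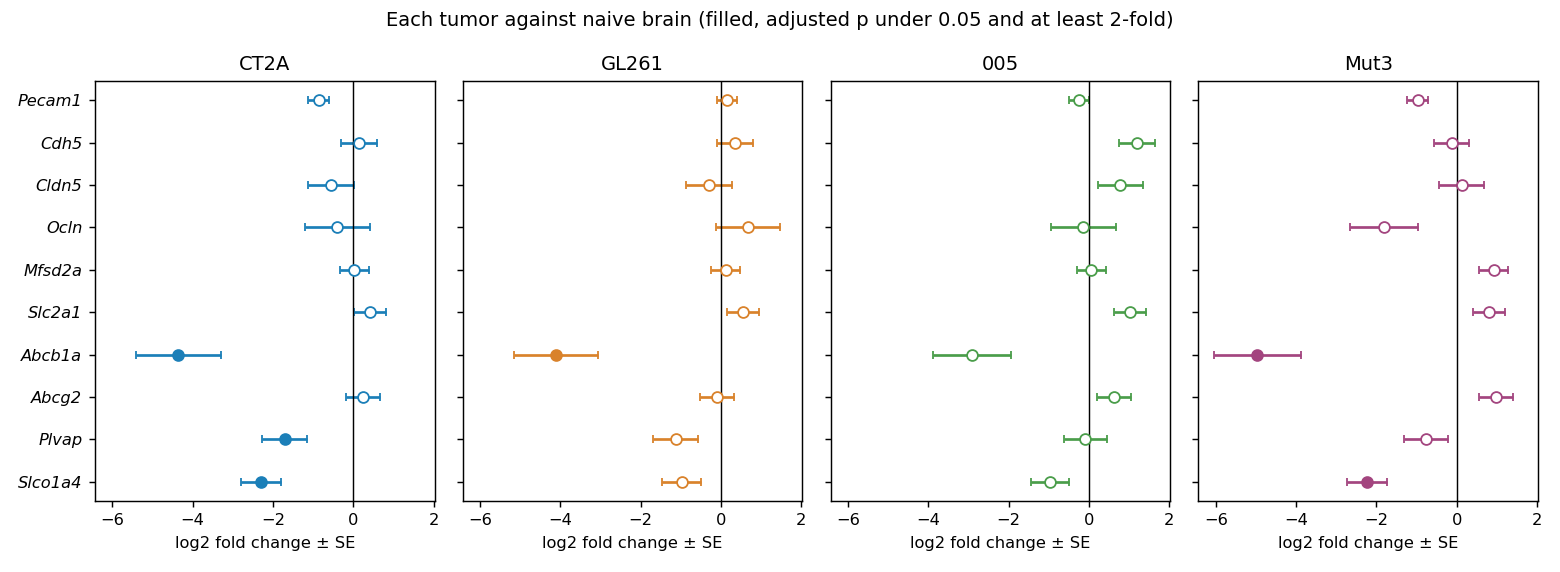
Log2 fold change against naïve brain (horizontal axis, with bars of 1 SE) for the 10 genes in each tumor, 3 samples per group, filled where the gene was DE. All filled points lie to the left of 0: Abcb1a, Plvap and Slco1a4 in CT2A, Abcb1a in GL261, and Abcb1a and Slco1a4 in Mut3.

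The tight junction genes showed no call against naïve brain. Cldn5 (ENSMUSG00000041378, chr16:18776847-18778262, plus strand) was at 4.28, 6.97 and 1.62 CPM in naïve brain, 4.03, 2.64 and 2.07 CPM in CT2A, 3.32, 3.56 and 3.64 CPM in GL261, 7.21, 9.05 and 6.05 CPM in 005 and 1.79, 8.05 and 4.31 CPM in Mut3. The naïve samples themselves spread over the range of CT2A, GL261 and much of Mut3, and 005 held the highest group mean. The log2 fold change was -0.56 in CT2A (95% interval -1.78 to 0.67), -0.29 in GL261 (-1.52 to 0.93), 0.78 in 005 (-0.42 to 1.98) and 0.13 in Mut3 (-1.08 to 1.33). Ocln (ENSMUSG00000021638, chr13:100496507-100552718, minus strand) was at 2.24, 3.49 and 7.03 CPM in naïve brain, 2.20, 0.621 and 6.72 CPM in CT2A, 12.2, 5.98 and 2.18 CPM in GL261, 3.40, 3.26 and 4.84 CPM in 005 and 0.336, 2.01 and 1.23 CPM in Mut3. All Mut3 samples lay below all naïve samples, with a change of -1.82 ± 0.85 that missed the threshold (edgeR adjusted p = 0.101). The other intervals were -2.13 to 1.33 in CT2A, -1.05 to 2.39 in GL261 and -1.85 to 1.58 in 005, so changes of 2-fold in either direction lay within each of them.

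Mfsd2a (ENSMUSG00000028655, chr4:122946850-122961188, minus strand), the lipid carrier that keeps vesicle transport low, had its highest values in Mut3. It stood at 3.88, 7.72 and 4.06 CPM in naïve brain, 6.23, 4.66 and 5.04 CPM in CT2A, 6.63, 5.98 and 4.37 CPM in GL261, 4.84, 6.28 and 5.13 CPM in 005 and 9.51, 10.3 and 9.94 CPM in Mut3. The Mut3 samples were close together and above all 12 others. Against naïve brain the log2 fold change in Mut3 was 0.93 ± 0.36 (edgeR adjusted p = 0.0530), and without naïve replicate 2 it was 1.50 and passed the test (edgeR adjusted p = 0.0091). In the other tumors the change was 0.03 in CT2A, 0.11 in GL261 and 0.05 in 005. Mut3 against the other 3 tumors gave 0.86 ± 0.27 (edgeR adjusted p = 0.0356), under the 2-fold limit. Over the 15 samples r of log2 CPM between Mfsd2a and the summed Wnt list was 0.72, with the pericyte sum 0.50 and with the neuronal sum -0.60. The Wnt sum was also highest in Mut3, at 338 to 378 CPM, against 246 to 296 CPM in 005. The median log2 fold change of the Wnt list in Mut3 against naïve brain was -0.17. The points share libraries and group differences, and the part of Wnt signals in the Mfsd2a values was not tested.

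Slc2a1 (ENSMUSG00000028645, chr4:119108711-119137983, plus strand), the glucose carrier, was at 8.16, 25.4 and 10.3 CPM in naïve brain, 15.6, 17.7 and 24.8 CPM in CT2A, 20.7, 18.6 and 24.6 CPM in GL261, 26.9, 38.3 and 23.4 CPM in 005 and 29.2, 28.7 and 19.0 CPM in Mut3. Naïve replicate 2, the library with the lowest total and a scaling factor of 1.30, stood above naïve replicates 1 and 3 and among the tumors. With all samples the log2 fold change was 0.41 ± 0.40 in CT2A (edgeR adjusted p = 0.426), 0.55 ± 0.40 in GL261 (edgeR adjusted p = 0.316), 1.02 ± 0.40 in 005 (edgeR adjusted p = 0.105) and 0.81 ± 0.40 in Mut3 (edgeR adjusted p = 0.119). Without naïve replicate 2 Slc2a1 was DE and higher in all 4 tumors: 1.28 in CT2A (edgeR adjusted p = 0.0191), 1.36 in GL261 (edgeR adjusted p = 0.0255), 1.79 in 005 (edgeR adjusted p = 0.0131) and 1.65 in Mut3 (edgeR adjusted p = 0.0053). Slc2a1 is a known hypoxia target. Of 10 other hypoxia targets, 5 were DE and higher in CT2A and in Mut3 and 2 in GL261 and in 005, with 1 lower in CT2A and 1 in Mut3 (Ndrg1 in both). Higher ones included Car9 (carbonic anhydrase) in all 4 tumors, which stood at 0 to 0.541 CPM in naïve brain, 0.641 to 5.15 CPM in 005 and 7.30 to 20.03 CPM in Mut3. Across samples r of log2 CPM between Slc2a1 and the summed hypoxia targets was 0.18. Antisense genes Gm12867 and Gm12868 and the miRNA gene Mir1957a overlap Slc2a1.

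Abcg2 (ENSMUSG00000029802, chr6:58584523-58695676, plus strand), the second efflux pump, stood at 26.5, 12.5 and 35.7 CPM in naïve brain, 28.1, 30.0 and 30.4 CPM in CT2A, 28.4, 23.6 and 17.7 CPM in GL261, 35.1, 58.6 and 21.6 CPM in 005 and 63.4, 30.8 and 52.2 CPM in Mut3. Each tumor overlapped the naïve samples. The log2 fold change against naïve brain was 0.24 in CT2A (95% interval -0.65 to 1.14), -0.10 in GL261 (-1.002 to 0.80), 0.63 in 005 (-0.27 to 1.52) and 0.97 in Mut3 (0.07 to 1.87, edgeR adjusted p = 0.0791). Without naïve replicate 3 Abcg2 was DE and higher in Mut3 (1.32, edgeR adjusted p = 0.0455), as it was with library size scaling (1.01, edgeR adjusted p = 0.0428).

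In the remaining comparisons between tumors few genes of the set were called. By edgeR 0 of 10 were DE for 005 against CT2A (4.11% of all genes), Mut3 against CT2A (12.8%) and 005 against GL261 (2.62%). DESeq2 called 0 in each of these, and 5, 1 and 0 genes had an unadjusted p under 0.05. The study divides its lines into immunologically active (GL261 and 005) and inert (CT2A and Mut3), and 1 gene of the set, Slco1a4, was DE between them, against 16.9% of all genes. Slco1a4 was higher in GL261 and 005 by 1.29 ± 0.35 on the log2 scale (edgeR adjusted p = 0.0183), and the 6 active samples lay above the 6 inert ones, from 5.67 CPM against at most 5.41 CPM. Without 005 replicate 3 the difference was 0.92 (edgeR adjusted p = 0.0514). Pecam1 was higher by 0.88 ± 0.18 (edgeR adjusted p = 0.0052), under 2-fold. Mut3 against the other 3 tumors gave 0 calls by edgeR (20.4% of all genes), 1 by DESeq2 (Ocln) and 4 at an unadjusted p under 0.05. Pecam1 was lower there by -0.66 ± 0.21 (edgeR adjusted p = 0.0370), also under 2-fold.

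Ordered by group mean, Pecam1 ran from GL261 (167 ± 26.0 CPM, SD, n = 3) through naïve brain (149.5 ± 11.8), 005 (127 ± 39.3) and CT2A (82.2 ± 4.29) to Mut3 (76.0 ± 1.10). The order for Slco1a4 was naïve brain (18.8 ± 6.24 CPM), GL261 (9.54 ± 2.80), 005 (9.52 ± 5.95), Mut3 (3.99 ± 1.85) and CT2A (3.78 ± 0.432). For Cdh5 it was 005 (9.02 ± 4.95 CPM), GL261 (4.97 ± 1.06), CT2A (4.30 ± 1.09), naïve brain (3.90 ± 0.945) and Mut3 (3.57 ± 0.509). Over the 10 genes, 0 of 40 neighbouring pairs in these orders were DE by edgeR. Sorting by mean sets the closest groups side by side, so few calls follow from the sorting and the count is not a result. DESeq2 called Abcb1a between naïve brain and 005, which are neighbours in its order. The genes of the set did not move as 1 block across samples. The 45 pairwise correlations of log2 CPM ran from -0.51 (Abcb1a with Slc2a1) to 0.75 (Pecam1 with Slco1a4), with a median of 0.13 and 7 over 0.5, as a description over 15 samples.

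The other vessel lists were counted to place the set. Of 20 pan-endothelial genes, all tested, 4 were DE and higher and 3 lower in CT2A, 3 and 0 in GL261, 5 and 0 in 005, and 5 and 1 in Mut3. Over the list the median log2 fold change was 0.37, 0.11, 0.70 and 0.60 in that order of tumors, beside -0.48, 0.01, -0.02 and -0.45 for the 10 genes and -0.04, -0.08, 0.01 and 0.11 for all genes tested. Cd93, an adhesion receptor of activated endothelium, rose in CT2A (1.85), 005 (2.94) and Mut3 (1.77), and S1pr1, the sphingosine-1-phosphate receptor, fell in CT2A (-2.67) and in Mut3 (95% interval -4.19 to -1.81). S1pr1 ranged over 68.4 to 95.4 CPM in naïve brain, 9.17 to 16.9 CPM in CT2A and 7.05 to 14.8 CPM in Mut3. S1pr1 is also a gene of astrocytes, and 6 of 11 astrocyte end-foot genes were DE and lower in CT2A and 5 in Mut3, with 0 in GL261 and 005 by edgeR and DESeq2 (1 and 0 at an unadjusted p under 0.05). Vwf, the von Willebrand factor, rose in 005 (2.05) and Mut3 (2.24).

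Of 16 sprouting and permeable-vessel genes tested out of 19, 10 were DE and higher and 2 lower in CT2A, 5 and 2 in GL261, 6 and 0 in 005, and 7 and 3 in Mut3. Its median log2 fold change was 2.31, 1.23, 0.97 and 1.29, so this list lay above all genes in each tumor while Plvap did not. Col4a1, a basement membrane collagen, rose by 4.99 in CT2A, from 4.06 to 16.7 CPM in naïve brain to 226 to 324 CPM. Angpt2, the ligand that loosens vessels, rose by 3.84 in Mut3, where it stood at 22.7 to 71.3 CPM against 2.16 to 5.10 CPM in naïve brain. Mcam rose by 4.11 and Icam1, the leukocyte adhesion receptor, by 3.49 in GL261. Pdgfb, the signal by which endothelium recruits pericytes, fell in CT2A (-1.68), GL261 (-1.45) and Mut3 (-2.06). Ackr1, a venule receptor for chemokines, fell in CT2A (-1.17) and Mut3 (-3.60). Several genes of this list are also made by tumor, stromal or immune cells, and which cells made them was not tested.

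Among 23 other junction and transport genes tested out of 25, 2 were DE and higher and 5 lower in CT2A, 2 and 1 in GL261, 4 and 0 in 005, and 3 and 6 in Mut3, with medians of -0.26, 0.01, 0.34 and -0.77. As with Slco1a4, Slc22a8 (OAT3, another organic anion carrier) fell in CT2A (-3.85) and Mut3 (-4.15), from 9.96 to 23.0 CPM in naïve brain to at most 1.83 and 1.41 CPM. Slc22a8 is expressed in the choroid plexus too, whose summed markers ran from 771 to 3363 CPM in naïve brain, 671 to 3380 CPM in CT2A and 458 to 878 CPM in Mut3. Of 9 choroid plexus and epithelium genes tested out of 11, 1 was DE and higher in CT2A, 1 higher in 005 and 1 lower in Mut3. Pltp, a lipid transfer protein, fell from 3.06 to 15.4 CPM in naïve brain to at most 0.611 CPM in CT2A, 1.46 CPM in GL261 and 0.503 CPM in Mut3. In the opposite direction, Slc3a2 (an amino acid carrier subunit) rose by 1.14 and Slc16a1 (the lactate carrier MCT1) by 1.09 in CT2A. Jam2, a junctional adhesion molecule, rose by 2.60 in Mut3 and Ly6c1 rose by 2.55 in GL261 and 2.71 in 005. The study counts Ly6C among the markers of its infiltrating macrophages. Ly6c1 stood at 45.6 to 76.25 CPM in naïve brain, 233 to 576 CPM in GL261, 80.6 to 934 CPM in 005 and 11.2 to 25.9 CPM in Mut3. The leukocyte sum was 440 to 778 CPM in GL261, 444 to 1278 CPM in 005 and 73.1 to 161 CPM in Mut3. The part of leukocytes in the Ly6c1 values was not tested.

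Of 13 Wnt pathway genes of barrier vessels tested out of 14, 3 were DE and higher and 2 lower in CT2A, 2 and 1 in GL261, 2 and 0 in 005, and 3 and 2 in Mut3. Adgra2, the Gpr124 receptor that relays Wnt7 signals, rose in CT2A (3.74), GL261 (2.25) and 005 (1.99), and the ligand gene Wnt7b rose in CT2A (2.37) and 005 (3.49). Wnt7a fell from 6.53 to 25.4 CPM in naïve brain to at most 1.55 CPM in CT2A and at most 0.126 CPM in Mut3, where it was at or near 0. Tspan12, the helper of Norrin signalling, rose in GL261 (1.08) and Mut3 (2.03), while the Norrin gene Ndp fell in GL261 (-1.48) and Mut3 (-1.07). Tnfrsf19 fell in CT2A (-2.70) and Lrp5 rose in Mut3 (1.37). Which cells of the bulk tissue made the genes of the Wnt list was not tested. Of 11 pericyte and mural genes tested out of 14, 2 were DE and higher and 1 lower in CT2A, 0 and 1 in GL261, 2 and 0 in 005, and 2 and 1 in Mut3. Vtn, a pericyte matrix gene, was the lower one in CT2A (-2.15), GL261 (-1.39) and Mut3 (-1.25). The higher ones were Pdgfrb (1.98) and Cspg4 (1.42) in CT2A, Kcnj8 (2.30) and Abcc9 (1.87) in 005, and Cspg4 (3.67) and Notch3 (1.77) in Mut3. The summed pericyte and mural list was 198 to 261 CPM in naïve brain, 142 to 162 CPM in CT2A and 257 to 316 CPM in Mut3. Which cells made these genes was not tested.

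**Figure D5:**
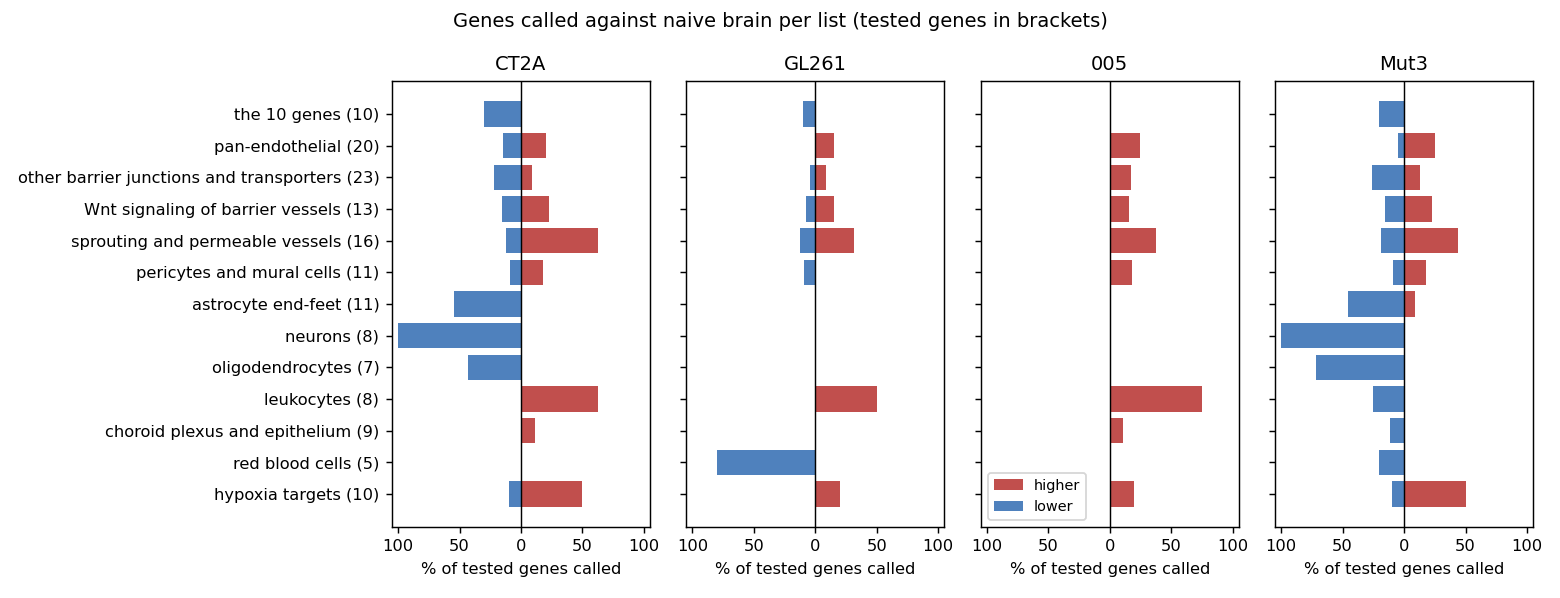
Share of tested genes of each list that were DE and higher (bars to the right) or lower (bars to the left) than naïve brain, in percent, 1 panel per tumor. For the 10 genes bars run only to the left (3 of 10 in CT2A, 1 in GL261 and 2 in Mut3), while sprouting and permeable-vessel genes have bars to the right in all 4 tumors.

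Genes whose log2 CPM was most like that of a member over the 15 samples were listed among 11356 genes with a mean log2 CPM of at least 2. For Cdh5 these were Rnf149 (r = 0.95), Inpp5d (0.89), Atf4 (0.87), Lrrc8c (0.87) and Atp1b3 (0.86). For Slc2a1 they were Tinf2 (0.91), Igfbp7 (0.91), Stx2 (0.89), Ankrd13a (0.89) and Tmem123 (0.89). For Plvap they were Ptcd1 (0.91), Atg101 (0.87), Nabp2 (0.84), Abhd11 (0.84) and Birc6 (0.83). For Cldn5 the leading values were lower, with Irak1 (0.76), Capns1 (0.76), Entr1 (0.76), Scd1 (0.75) and Supv3l1 (0.74). None of these genes is in the pan-endothelial list, and r was 0.72 between Cldn5 and the sum of that list. Any gene of that list with a mean log2 CPM under 2 was outside the search, so this absence is not a result. These are the highest of many correlations over few samples and are given as a description.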

How the data were processed

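Total RNA of 3 mice per group was sequenced, and the submitters aligned reads with STAR 2.4.2a to the GENCODE mouse genome, with Picard and RNA-SeQC metrics. Their processing notes also name Salmon, DESeq2 1.18.1 and mm10, without roles, and strandedness and annotation release are not given in the sources used here. The authors deposited estimated counts per gene, not normalized between samples, and TPM values per gene, each sample summing to 1000000. Identifiers were named from GENCODE M21 (46269 of 46679 matched).

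Estimated counts were rounded and fitted with edgeR 4.0.16 in R 4.3.3 (TMM scaling, filterByExpr, quasi-likelihood test, group means over all 15 samples, no covariate), with Benjamini-Hochberg adjustment over 17481 genes. CPM values are TMM-scaled. SE was taken from the log2 fold change and its F value. The test was tried on simulated counts first. The 10 genes and the gene lists (pan-endothelial, other barrier, Wnt, sprouting, pericytes, astrocyte end-feet, neurons, oligodendrocytes, leukocytes, choroid plexus, red blood cells, hypoxia targets) were chosen with earlier results of these data known. Named were the 10 genes, up to 2 called genes per list, tumor and direction, and the 5 genes most like Cdh5, Cldn5, Plvap and Slc2a1. Those named outside this rule are said to be. Alternatives were DESeq2 1.42.0, library size scaling, other count filters, only the samples compared, no fold threshold, limma 3.58.1 on log2(TPM + 1), a replicate block and leaving out each sample. P-values measure the spread between mice.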

Additional observations from a re-analysis of the deposited data

Results flagged for a closer look

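The effect of the tumor over the same naïve brain differed between lines for 2 genes of the set, by a test of the difference itself. Pecam1 differed between GL261 and CT2A (log2 difference 1.02, edgeR adjusted p = 0.0236, higher in 3 of 3 GL261 samples than in any CT2A sample) and between Mut3 and GL261 (-1.13, edgeR adjusted p = 0.0090, lower in 3 of 3 Mut3 samples). The first of these stood in 1 of 6 fits with 1 sample left out and the second in 6 of 6. Cdh5 differed between Mut3 and 005 (-1.33, edgeR adjusted p = 0.0418, lower in 3 of 3 Mut3 samples), and this stood in 1 of 6 such fits. Over all 17481 genes, 7.77% were DE between GL261 and CT2A, 17.2% between Mut3 and GL261 and 19.8% between Mut3 and 005. All GL261 samples lay above all CT2A samples for 3316 genes. All Mut3 samples lay below all GL261 samples for 4166 genes and below all 005 samples for 3194. Of 8 leukocyte markers tested, edgeR and DESeq2 called 0 between GL261 and CT2A (2 at an unadjusted p under 0.05), and edgeR called 5 lower in Mut3 than in GL261 and 7 lower in Mut3 than in 005. Their part in the Pecam1 and Cdh5 values was not tested.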

How the results depend on the processing

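Counts below are of the 10 genes called. The shares of all genes given above hold for the main edgeR fit, and those under most settings below are not given. A count below is therefore not a result about the set. DESeq2 called 1 in 005 against naïve brain, 0 in GL261 against CT2A, 2 in Mut3 against GL261, 1 in Mut3 against the other tumors and 6 among the 5 groups. By edgeR 52.1% of all genes passed the test among the 5 groups. Against naïve brain in CT2A, where 3 were called, the calls were 4 with library size scaling (Pecam1 gained) and 2 with no filter or only the samples compared (Plvap lost). On log2(TPM + 1) Slco1a4 was lost in CT2A (-0.99) and Mut3 (-0.96) and Pecam1 gained in both. Library size scaling gave 4 in Mut3 against naïve brain and 0 in Mut3 against 005. With no filter on low counts there were 1 in 005 against naïve brain, 0 in GL261 against CT2A, 2 in Mut3 against GL261 and 0 in Mut3 against 005. Requiring 10 counts in every sample left 9435 genes and 6 of the 10 (without Cldn5, Ocln, Abcb1a and Plvap), with 1 in CT2A and 0 in GL261 against naïve brain. Fitting only the samples compared gave 2 in GL261 against CT2A, 3 in Mut3 against GL261 and 0 in Mut3 against 005. With no fold threshold, Mut3 against 005, the active against the inert lines, and Mut3 against the other tumors had 2 each. On log2(TPM + 1) there were 0 in GL261 against CT2A, Mut3 against GL261, Mut3 against 005 and the active against the inert lines. Same-numbered samples did not deviate together (1 of 30 pairs had r over 0.1, median -0.02, against 0.01 for samples of other numbers). Weak correlations cannot show whether mice of the same number were handled together, so pairing stays unknown. With a replicate block the calls were 0 in Mut3 against 005, where 2551 in place of 3463 genes were called over all.

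Leaving out 1 sample gave 2 to 3 calls in CT2A, 0 to 2 in GL261, 0 to 3 in 005 and 2 to 4 in Mut3 against naïve brain, 3 to 5 among the 5 groups, 0 to 1 in GL261 against CT2A, in Mut3 against 005 and in Mut3 against the other tumors, and 0 to 2 in the active against the inert lines. Of 504 alternative values of single genes in a tumor against naïve brain, 435 kept direction and side of the threshold and 37 reversed. Of the 37, 0 were for a gene in a tumor where it was called. A call was lost in 11 and gained in 21. Comparisons between tumors are not among these values. Reversals under library size scaling were Cdh5 (-0.068) and Mfsd2a (-0.22) in CT2A and Mfsd2a in GL261 (-0.042) and 005 (-0.082). With 10 counts in every sample Mfsd2a was -0.028 in CT2A, and with only the samples compared Abcg2 was 0.024 in GL261. On log2(TPM + 1), where the median of all genes lay at -0.38 for CT2A, -0.35 for GL261, -0.23 for 005 and -0.27 for Mut3, the reversed values were Cdh5 (-0.22), Mfsd2a (-0.50), Slc2a1 (-0.35) and Abcg2 (-0.56) in CT2A, Pecam1 (-0.63), Cdh5 (-0.14), Ocln (-0.044), Mfsd2a (-0.39) and Slc2a1 (-0.11) in GL261, Mfsd2a (-0.29) in 005 and Cldn5 (-0.49) in Mut3. Library size scaling put the median of all genes at -0.24 in CT2A. Leaving out 1 sample, Mfsd2a ranged over -0.14 to 0.63 in CT2A, -0.059 to 0.65 in GL261 and -0.12 to 0.55 in 005, and Cldn5 over -0.93 to 0.17, -0.67 to 0.38 and, in Mut3, -0.48 to 0.84. Plvap ranged over -0.38 to 0.60 in 005, Cdh5 over -0.066 to 0.56 in CT2A and -0.24 to 0.26 in Mut3, Ocln over -1.54 to 0.17 in CT2A and -0.44 to 0.44 in 005, and Abcg2 over -0.28 to 0.25 in GL261. The cause of these moves was not tested. Low counts, as few as 2.89 for Ocln, limit Cldn5, Ocln, Cdh5 and Plvap.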
